A study of Mus musculus with 11 samples.

Results

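The genes described here are the 10 that carry the axis of phosphate, Klotho and vitamin D in the kidney, chosen by name: *Kl*, *Fgfr1*, *Pth1r*, *Vdr*, *Cyp24a1*, *Cyp27b1*, *Slc34a1*, *Slc34a3*, *Slc20a1* and *Slc20a2*. All 10 were among the 28692 genes counted. Their levels were compared along the tubule in single-cell libraries of mouse kidney, 5 from control, 3 from UIR and 3 from UUO mice. In UIR the pedicle of the left kidney was clamped and then released (unilateral ischemia reperfusion), and in UUO the left ureter was tied off for good (unilateral ureteral obstruction). The mice were male C57Bl/6 of 10 weeks, kidneys were taken on day 28, and the control libraries came from uninjured mice of the same strain, sex and age. Cells were freed with a protease that works in the cold. Controls carried 3 kinds of name (Ctrl, N and AN), and no source used here assigns the injured libraries to sequencing runs, so batch and injury cannot be told apart.

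Phosphate leaves the filtrate mainly in the proximal tubule (PT), through the sodium-phosphate cotransporters of the brush border, NaPi-IIa (*Slc34a1*) and NaPi-IIc (*Slc34a3*). Parathyroid hormone, through its receptor *Pth1r*, and the bone hormone FGF23, through *Fgfr1* and its co-receptor Klotho (*Kl*), both lower this uptake. Klotho is best known from the distal convoluted tubule and is lost in chronic kidney disease. Active vitamin D is made by the 1α-hydroxylase *Cyp27b1*, is broken down by the 24-hydroxylase *Cyp24a1* and acts through the nuclear receptor *Vdr*, which in the distal nephron drives genes of calcium transport. The Pit proteins *Slc20a1* and *Slc20a2* are phosphate importers that most cells have.

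*Kl* (ENSMUSG00000058488) lies on chr5:150952607-150993817, + strand, *Vdr* on chr15:97854425-97910630, − strand, *Slc34a1* on chr13:55398187-55415592, + strand, and *Slc34a3* on chr2:25228898-25234364, − strand, all in GRCm38. The stretches that surround a transcript start of these 4 genes are shown because nuclear receptors and PT regulators are known to act on genes of this axis, and because *Kl* and *Vdr* fell in the distal nephron while *Slc34a1* and *Slc34a3* belong to the PT. Each runs 5′ to 3′ on the strand of the gene from 250 bases before to 50 after the transcript start that RefSeq gives (GRCm38.p6), which in *Vdr*, *Slc34a1* and *Slc34a3* lies inside the gene span above, at chr5:150952357-150952656, chr15:97908247-97908546, chr13:55399398-55399697 and chr2:25234185-25234484. Capitals mark every match, on either strand, to the nuclear receptor hexamers AGGTCA and AGTTCA and to GTTAAT, a core of the site of the PT factor HNF1.
Kl: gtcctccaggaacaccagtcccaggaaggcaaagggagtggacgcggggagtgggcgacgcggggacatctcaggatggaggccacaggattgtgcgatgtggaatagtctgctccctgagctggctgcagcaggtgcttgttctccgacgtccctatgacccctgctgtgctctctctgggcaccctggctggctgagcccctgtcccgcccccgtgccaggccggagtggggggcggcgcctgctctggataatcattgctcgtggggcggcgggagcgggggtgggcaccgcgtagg
Vdr: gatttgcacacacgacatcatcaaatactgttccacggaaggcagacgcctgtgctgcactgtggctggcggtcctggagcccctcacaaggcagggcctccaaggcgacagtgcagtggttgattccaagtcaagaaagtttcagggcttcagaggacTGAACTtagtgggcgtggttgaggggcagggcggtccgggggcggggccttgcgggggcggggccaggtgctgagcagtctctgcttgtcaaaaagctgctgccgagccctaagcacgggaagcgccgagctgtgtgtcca
Slc34a1: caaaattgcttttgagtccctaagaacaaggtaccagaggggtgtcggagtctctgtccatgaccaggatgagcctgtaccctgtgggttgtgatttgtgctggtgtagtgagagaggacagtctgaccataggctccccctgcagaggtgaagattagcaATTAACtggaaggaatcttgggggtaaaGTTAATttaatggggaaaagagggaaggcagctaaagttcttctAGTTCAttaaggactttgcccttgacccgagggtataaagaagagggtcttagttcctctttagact
Slc34a3: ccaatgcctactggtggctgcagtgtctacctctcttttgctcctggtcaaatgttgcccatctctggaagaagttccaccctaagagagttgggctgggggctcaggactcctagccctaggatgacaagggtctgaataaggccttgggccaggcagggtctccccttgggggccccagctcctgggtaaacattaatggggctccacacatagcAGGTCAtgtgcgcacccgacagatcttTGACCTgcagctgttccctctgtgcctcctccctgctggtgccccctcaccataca
*Slc34a3* held AGGTCA at position -33 from the start and its reverse complement at -6. *Slc34a1* held AGTTCA at -17 and GTTAAT at -61, with the reverse complement of GTTAAT at -89. *Vdr* held the reverse complement of AGTTCA at -91, and the *Kl* stretch held none of these letters. Such matches were common, since AGGTCA stood in 16.3%, AGTTCA in 14.0% and GTTAAT in 7.10% of 32851 promoters of this length. A direct repeat of AGGTCA with 3 bases between, the known form of a vitamin D response element and so overlapping the first motif, stood in 2 of them and in no promoter of the 10 genes that had an entry. Entries were at hand for 7 of the 10 genes, and a match is no evidence of binding.

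Libraries held between 49503312 and 117043590 unique molecular identifiers (UMIs), and 40591 cells passed the filters, 14621 of which belonged to 6 named tubular classes. The PT class held 6992 control, 2557 UIR and 174 UUO cells, and the UUO libraries gave 37, 51 and 86 of these. The share of called droplets that exceeded the mitochondrial limit of 30% ran from 56.9 to 78.9% in control, from 23.9 to 37.3% in UIR and from 3.17 to 8.03% in UUO libraries. Classes were checked against their defining markers. The loop of Henle kept *Umod* (12244 CPM, UMIs per 1000000 of the class, in control, 10207 in UIR and 9604 in UUO) but its *Egf* fell from 7697 to 190.0 and 135 CPM. In the distal tubule, the class marked by the thiazide-sensitive cotransporter *Slc12a3*, that marker averaged 3971 CPM in control, 1663 in UIR and 481 in UUO, and *Pvalb* 645, 13.8 and 3.05. Collecting duct (CD) principal cells of UUO held 158 CPM of the water channel *Aqp2* against 8627 in control. The connecting tubule class was shallow, and 16 to 33.2% of its UMIs in control and 26.8 to 35.5% in UIR were estimated to come from free RNA. Cells left unnamed made up 15.8% of the distal nephron cells in control, 31.0% in UIR and 42.5% in UUO.

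Values of a tubular class in a library are CPM of its summed cells, with at least 20 cells. Values of sub-clusters sum the cells of a whole group and rest on fewer cells in places. Changes are log2 fold changes ± standard error. They come from edgeR (quasi-likelihood), and a change was called at an adjusted p below 0.05. P-values were adjusted by Benjamini and Hochberg over every gene tested in a segment and comparison. Of 41 tests of a member in a segment, UIR against control, 14 were called lower and 2 higher. Over all genes and segments 9.95% were called lower and 11% higher in this comparison. In UUO against control 15 of 37 tests of members were called lower and 1 higher, where all genes gave 13.0% and 13.5%. In UUO against UIR 10 of 37 were lower and 0 higher, against 1.21% and 1.09% of all genes. The median log2 change of the members was −0.34, −0.55 and −0.26 in these comparisons, and that of all genes lay near 0 by the scaling used. Without *Slc34a1* outside the PT, where its level was not above that of macrophages in 4 of the 5 classes, 10 of 36 members' tests were lower and 2 higher in UIR, 11 of 33 lower and 1 higher in UUO, and 6 of 33 lower in UUO against UIR. When libraries were scaled by their totals alone, the median of all genes in the distal tubule rose by 0.41 in UIR and 0.48 in UUO and that of the loop by 0.31 and 0.30, so the changes below are relative to that shift.

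**Figure D1:**
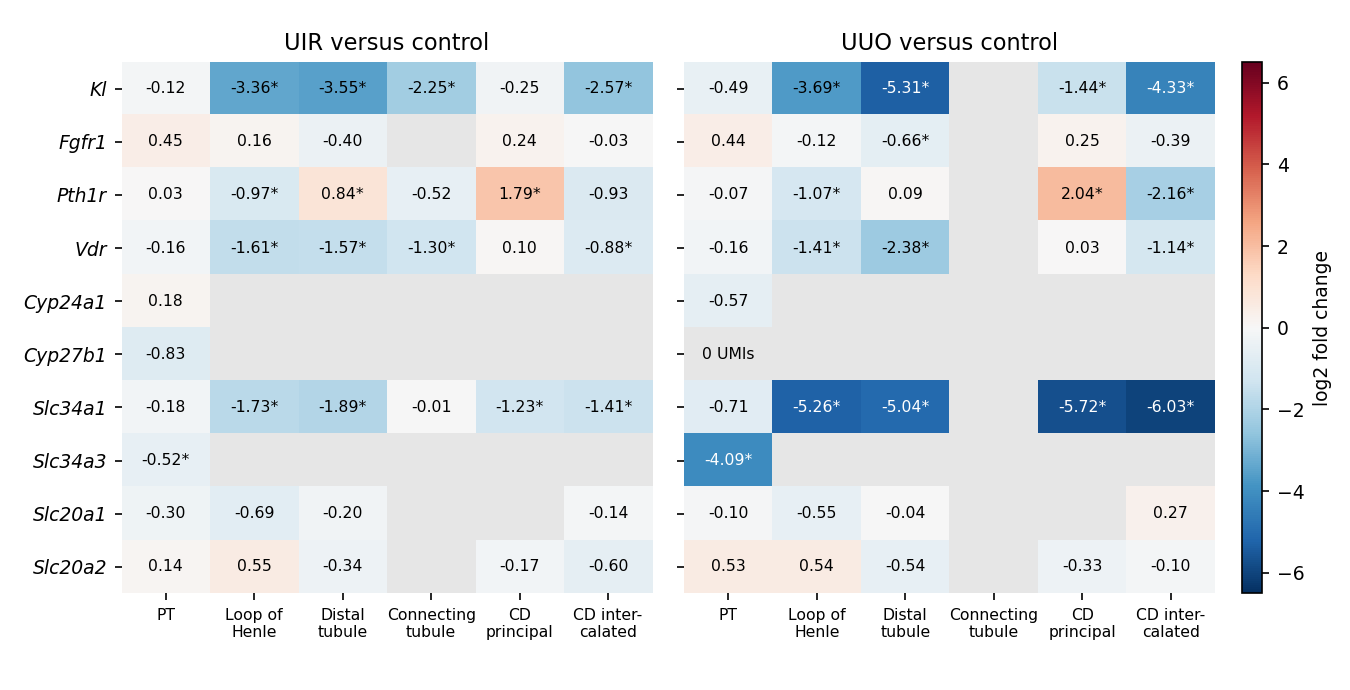
Log2 fold changes of the 10 genes (rows) in 6 tubular classes (columns) of UIR and UUO against control, from edgeR. Blue is lower and red higher in the injured kidneys, an asterisk marks an adjusted p below 0.05, and grey marks a gene that was too low to test or a class without enough pools. *Kl* and *Vdr* were lower in the loop, the distal tubule and the intercalated cells of both models and not called in the PT.

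*Kl* was the member that fell most among those whose level stood above free RNA. In the distal tubule of the 5 controls (Ctrl, N1, N2, AN1 and AN2, the order used throughout) it measured 1357, 1541, 1097, 832 and 828 CPM. The UIR libraries (UIR, UIR1 and UIR2) gave 160.3, 152 and 56.8 CPM, and the UUO libraries (UUO, UUO1 and UUO2) gave 6.98, 33.2 and 73.8 CPM. The 3 groups had means of 1131 ± 317, 123 ± 57.5 and 38.0 ± 33.7 CPM (SD, n = 5, 3 and 3). Every injured library lay far below every control, and UIR and UUO overlapped in 1 library each. The fall was 11.8-fold in UIR (−3.55 ± 0.36, adjusted p = 5.65e-09) and 39.6-fold in UUO (−5.31 ± 0.41, adjusted p = 1.48e-11). UUO was lower than UIR by 1.75 ± 0.40 on the log2 scale (adjusted p = 0.0058), a call that was lost with the library number as a block (−1.76, adjusted p = 0.0918) and in DESeq2.

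The loop of Henle, the segment of the furosemide-sensitive transporter, started from a lower level of *Kl*. Controls measured 311, 237, 245, 270.1 and 130.2 CPM, UIR 31.9, 30.4 and 23.0, and UUO 12.4, 27.7 and 29.3. No injured library reached the lowest control, and the 2 models overlapped. *Kl* fell there 10.3-fold in UIR (−3.36 ± 0.23, adjusted p = 5.28e-11) and 12.9-fold in UUO (−3.69 ± 0.26, adjusted p = 1.06e-10), which differed by −0.33 and not past the threshold. In intercalated cells of the CD, which secrete acid or base, controls measured 188, 247, 231, 277 and 193 CPM, UIR 42.2, 59.9 and 35.9, and UUO 15.4, 8.59 and 19.2. The 3 groups were fully apart. The fall was 5.93-fold in UIR (−2.57 ± 0.20, adjusted p = 2.91e-08) and 20.1-fold in UUO (−4.33 ± 0.26, adjusted p = 1.72e-10), and UUO lay below UIR by 1.76 ± 0.29 (adjusted p = 0.00187).

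The connecting tubule, where calcium uptake is set by hormones, held 674, 797, 479, 533 and 484 CPM of *Kl* in control and 173, 151 and 74.3 in UIR, a fall of 4.74-fold (−2.25 ± 0.25, adjusted p = 3.87e-07). A single UUO library had enough of these cells, with 74.4 CPM, so no test was made. CD principal cells, the cells of the water channels, differed from the rest. Controls measured 141, 137, 199, 105 and 64.9 CPM, UIR 98.5, 133 and 98.4, and UUO 39.1, 36.4 and 77.1. UIR lay inside the control range (−0.25 ± 0.26, adjusted p = 0.614) and UUO mostly under it (−1.44 ± 0.28, adjusted p = 0.00056). The sub-clusters of this class differed between groups. D14 (111 control, 127 UIR and 10 UUO cells) held 176, 207 and 350 CPM of *Kl*, and D21 (107, 16 and 0 cells) 63.6 CPM in control and 15.1 in UIR (3 UMIs). Most UUO cells sat in D6 (1, 144 and 236 cells), with 71.0 CPM in UIR and 46.0 in UUO, and in D24 (4, 27 and 57 cells), with 7.95 (3 UMIs) and 0.696 (1 UMI). UUO was below UIR by 1.19 ± 0.29 (adjusted p = 0.029), but this call was lost when UIR1, UIR2, UUO or UUO1 was left out.

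In the PT no change of *Kl* was called. Controls measured 293, 232, 226, 199 and 252 CPM, UIR 207, 228 and 221, and UUO 270.3, 215 and 149 (10, 77 and 60 UMIs). The PT pool of library UUO held only 36993 UMIs, and 37.8% of them were estimated to come from free RNA. The groups overlapped, and neither UIR (−0.12 ± 0.12, adjusted p = 0.613) nor UUO (−0.49 ± 0.17, adjusted p = 0.122) passed the test. In control kidneys the order was therefore distal tubule, connecting tubule, then PT (240.3 ± 34.8 CPM), loop (239 ± 67.2) and intercalated cells (227 ± 37.5), which did not differ beyond their spread, and last principal cells (129.6 ± 49.6), whose range met that of the intercalated cells. Among the named classes the PT (219 ± 11.1 CPM) held the highest mean in UIR kidneys and likewise in UUO kidneys (212 ± 60.5). Sub-clusters described below held more in both models, D10 within the distal tubule and the unnamed D15, each with few UUO cells. Macrophages, which should lack Klotho, held 3.9 to 43.6 CPM in control, 4.54 to 14.1 in UIR and 0.349 to 1.29 in UUO.

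**Figure D2:**
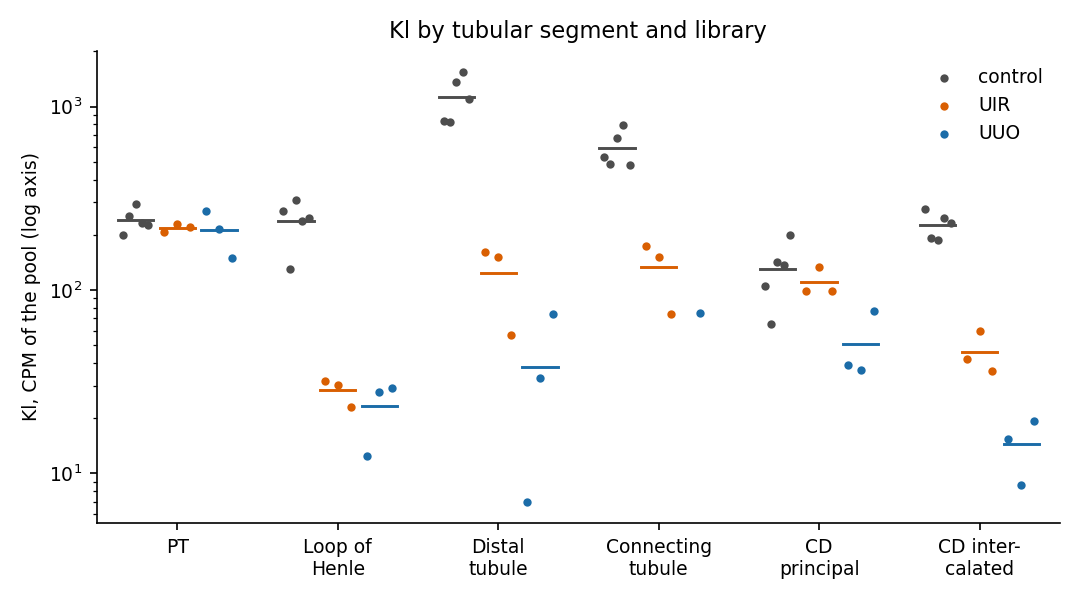
*Kl* in CPM (log axis) for each library and tubular class with at least 20 cells. Points are libraries, lines are group means, and the connecting tubule of UUO has 1 library. Injured libraries lie under all controls in the loop, distal tubule, connecting tubule and intercalated cells, and overlap them in the PT.

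The share of cells with a *Kl* UMI moved with the summed level. With each distal tubule cell thinned to 2000 UMIs, 50 to 72.7% of control cells held *Kl*, 8.54 to 21.7% of UIR cells and 1.59 to 12.5% of UUO cells (15, 12 and 11 shallower cells left out). Without thinning the shares were 76.3 to 88.9%, 37.6 to 54.4% and 10.6 to 33.8%. Thinned macrophages gave 1.39 to 4.88%, 1.21 to 1.88% and 0 to 0.39%. Median depth was 7835 to 11872.5 UMIs in control distal tubule cells and 12387 to 16899.5 in UUO.

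The cells that made up a class changed with injury, and the levels of *Kl* went with them. The distal tubule class joined 2 sub-clusters. The first (D10) held 255 control, 27 UIR and 10 UUO cells, and its summed cells had 1145 CPM of *Kl* in control (3052 UMIs), 721 in UIR (240 UMIs) and 729 in UUO (92 UMIs). The second (D4), led by *Slc12a3*, *Clu* and *Scube3*, held 0 control, 270 UIR and 204 UUO cells, with 74.9 and 19.1 CPM. Nearly all injured distal cells thus sat in a cluster without controls. The loop class was built alike, from D7 (262 control, 82 UIR and 6 UUO cells, with 251, 115 and 117 CPM) and D0 (3, 888 and 360 cells, with 25.2 CPM in UIR and 21.4 in UUO). In intercalated cells D20 (65 control, 79 UIR and 8 UUO cells) went from 237 CPM in control to 71.8 in UIR and 47.8 in UUO (6 UMIs). D5 (144, 212 and 44 cells) held 46.5, 35.6 and 15.4 CPM, the last from 1 UMI, and D11 (0, 132 and 151 cells) 18.5 CPM in UIR and 12.0 in UUO. An unnamed sub-cluster (D15) with 125 control, 106 UIR and 7 UUO cells held the highest level, 1959, 1006 and 426 CPM. These pooled values have no test.

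**Figure D3:**
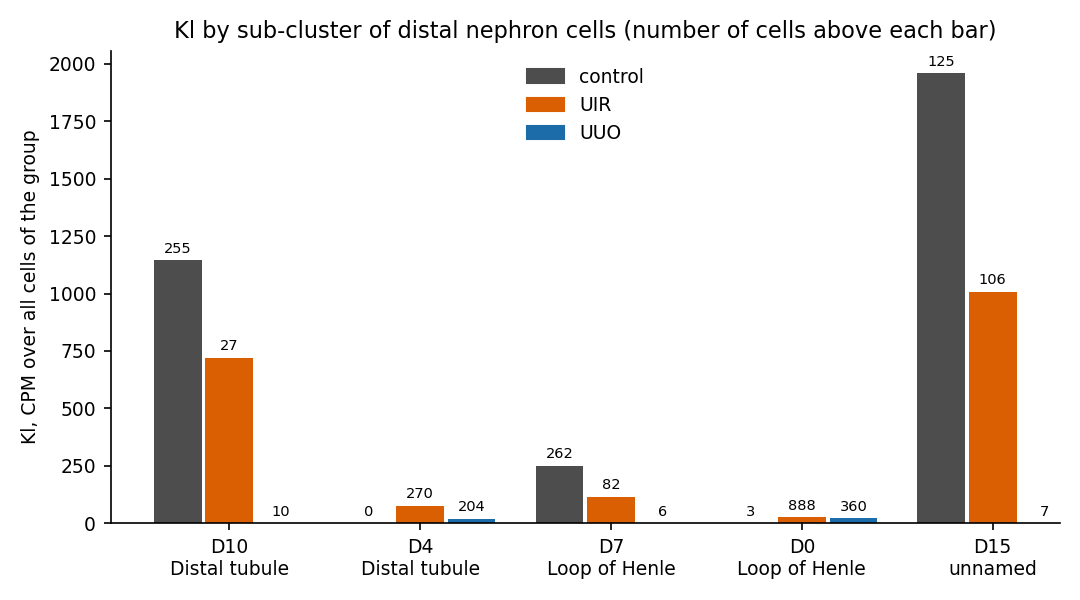
*Kl* in CPM over all cells of a group in 5 sub-clusters of distal nephron cells, with the number of cells above each bar and no bar for groups under 20 cells. D4 and D0, which hold few or no control cells, are low, and the shared sub-clusters D10, D7 and D15 are lower in UIR than in control.

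The fitted value depended on which cells formed the class. When droplets with up to 50% mitochondrial UMIs were kept and all cells clustered anew, 449 of the 474 cells of D4 fell into an unnamed cluster, and *Kl* in the distal tubule class then differed between UIR and control by −0.0065 (adjusted p = 0.996), *Vdr* by −0.32 (adjusted p = 0.479) and *Pth1r* by 0.11 (adjusted p = 0.881). No UUO library then had 20 distal tubule cells. The falls of *Kl* in the loop (−3.04 in UIR and −3.66 in UUO), the intercalated cells (−1.85 and −3.28) and the connecting tubule (−0.67, adjusted p = 0.000357) were still called.

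*Fgfr1* (chr8:25513654-25575718, + strand), the receptor that pairs with Klotho for FGF23, changed little. Distal tubule pools measured 57.8, 22.9, 64.8, 35.3 and 44.9 CPM in control, 44.2, 31.0 and 62.8 in UIR and 41.1, 41.5 and 38.7 in UUO, so the injured libraries lay inside the control range. Its only call was lower in UUO distal tubule (−0.66 ± 0.23, adjusted p = 0.0221), where the mean CPM was 40.4 ± 1.55 against 45.1 ± 16.9, and scaling by library totals alone ended it (−0.23, adjusted p = 0.425). PT pools held 7.93 to 12.7 CPM in control and 13.2 to 17.0 in UIR, which was not called (0.45 ± 0.17, adjusted p = 0.0889). Podocytes held the highest level of the gene among the classes, 197 to 252 CPM in control, 205 to 245 in UIR and 233 to 249.7 in UUO. Stroma of UIR held 116 to 156 CPM and that of UUO 125 to 150.1.

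*Pth1r* (chr9:110722085-110747145, − strand), the parathyroid hormone receptor, was called lower in some classes and higher in others. The rises stood in sub-clusters with 0 (D4) or 1 (D6) control cells. In the PT, the classical site of the receptor, controls measured 337, 339.6, 333, 329 and 332 CPM, UIR 324, 349 and 345, and UUO 351, 405 and 311 (13, 145 and 125 UMIs). The groups overlapped and were not called (0.03 in UIR and −0.07 in UUO). In the loop controls measured 401, 423, 519, 415 and 346 CPM, UIR 267, 282 and 233, and UUO 190.2, 321 and 213, all below the lowest control. *Pth1r* fell there by 0.97 ± 0.17 in UIR (adjusted p = 6.01e-05) and by 1.07 ± 0.17 in UUO (adjusted p = 2.22e-05) on the log2 scale.

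In the distal tubule, in contrast, *Pth1r* rose in UIR. Controls measured 191, 283, 222, 162 and 129.7 CPM, UIR 449, 519 and 375, and UUO 237, 287 and 311. Each UIR library exceeded every control, and UUO reached into the control range. The rise was 0.84 ± 0.18 in UIR (adjusted p = 0.000375) and 0.09 ± 0.18 in UUO (adjusted p = 0.713). UUO lay below UIR by 0.75 ± 0.19 (adjusted p = 0.0114), which was not called without UIR1 or UUO1. The rise went with sub-cluster D4, at 463 CPM in its UIR cells and 282 in its UUO cells, while D10 held 191 CPM in control and 156 in UIR.

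CD principal cells held little *Pth1r* in control, 16.5, 10.9, 13.5, 4.37 and 26.9 CPM, which is no more than macrophages (13.5 to 29.1) or endothelial cells (22.2 to 57.3) of control. Injured principal cells measured 64.6, 64.2 and 30.5 CPM in UIR and 51.2, 43.1 and 105 in UUO, all above the highest control. Macrophages of UIR had 11.3 to 30.8 CPM and those of UUO 3.68 to 9.43. The rise was called in UIR (1.79 ± 0.41, adjusted p = 0.00497) and UUO (2.04 ± 0.40, adjusted p = 0.000548). It stood in sub-cluster D6, with 1 control, 144 UIR and 236 UUO cells and 90.7 and 80.2 CPM in the injured groups. D14, shared by 111 control, 127 UIR and 10 UUO cells, had 10.5 CPM in control (15 UMIs), 12.2 in UIR (18 UMIs) and 18.7 in UUO (4 UMIs). With the mitochondrial limit at 50%, where 365 of the 381 cells of D6 were unnamed, the class gave −0.22 in UIR (adjusted p = 0.884) and −1.49 in UUO (adjusted p = 0.0669). Intercalated cells showed the reverse in UUO, with 17.6 to 30.4 CPM in control, 5.03 to 23.4 in UIR and 5.13 to 7.27 in UUO, levels near those of macrophages. The fall was called in UUO (−2.16 ± 0.44, adjusted p = 0.000797) and not in UIR (−0.93 ± 0.35, adjusted p = 0.0788). Without removal of doublets the sign turned there, to 1.25 in UIR (adjusted p = 6.79e-05) and 0.22 in UUO. Podocytes had the highest level of the classes, 1531 to 1799 CPM in control, 1409 to 1581 in UIR and 1737 to 1878 in UUO.

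*Vdr*, the vitamin D receptor, fell in the loop, the distal and connecting tubule and the intercalated cells. Distal tubule pools measured 265, 355, 381, 182 and 211 CPM in control, 113, 147 and 105 in UIR and 58.2, 86.2 and 68.9 in UUO. None of the 3 groups overlapped. The fall was 1.57 ± 0.19 on the log2 scale in UIR (adjusted p = 2.14e-07) and 2.38 ± 0.21 in UUO (adjusted p = 1.46e-10). UUO was lower than UIR by 0.81 ± 0.22 (adjusted p = 0.0184), and this was lost without UIR1, UUO or UUO2. D10 held 276 CPM of *Vdr* in control, 129 in UIR (43 UMIs) and 159 in UUO (20 UMIs), and D4 118 in UIR and 70.7 in UUO.

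Loop pools held 116, 79.1, 109.6, 114 and 75.7 CPM of *Vdr* in control, 34.5, 48.6 and 37.4 in UIR and 30.3, 53.9 and 56.1 in UUO, with both models under the controls and overlapping each other. The log2 change was −1.61 ± 0.20 (adjusted p = 5.74e-07) and −1.41 ± 0.21 (adjusted p = 9.73e-06). In the connecting tubule controls measured 515, 255, 235, 246 and 314 CPM and UIR 193, 127 and 99 (−1.30 ± 0.28, adjusted p = 0.00227), and the 1 UUO pool 223. Intercalated cells went from 125, 129, 71.3, 110.0 and 61.7 CPM in control to 69.8, 60.8 and 65.4 in UIR and 50, 62.8 and 56.9 in UUO. Injured libraries touched the lower end of the controls, with changes of −0.88 ± 0.18 (adjusted p = 0.00192) and −1.14 ± 0.20 (adjusted p = 0.000157).

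No change of *Vdr* was called in principal cells or the PT. Principal cells held 20.3 to 56.2 CPM in control, 31.9 to 46.7 in UIR and 25.3 to 64.5 in UUO (0.10 and 0.03, not called). With the mitochondrial limit at 50% the UUO value there was −2.43 (adjusted p = 3.87e-05). PT pools measured 98.7, 113, 109.7, 90.6 and 106 CPM in control, 89.9, 89.7 and 96.6 in UIR, and 189, 75.5 and 115 in UUO (7, 27 and 46 UMIs), whose 3 libraries spread on both sides of the controls. The changes were −0.16 ± 0.11 (adjusted p = 0.41) and −0.16 ± 0.18 (adjusted p = 0.716). In control the connecting tubule (313 ± 117 CPM) and distal tubule (279 ± 87.0) led without differing beyond their spread, the PT (104 ± 9.01), intercalated cells (99.3 ± 30.9) and loop (99 ± 19.9) came next, and principal cells (32.0 ± 14.7) last. Macrophages held 0 to 17.1 CPM in control.

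**Figure D4:**
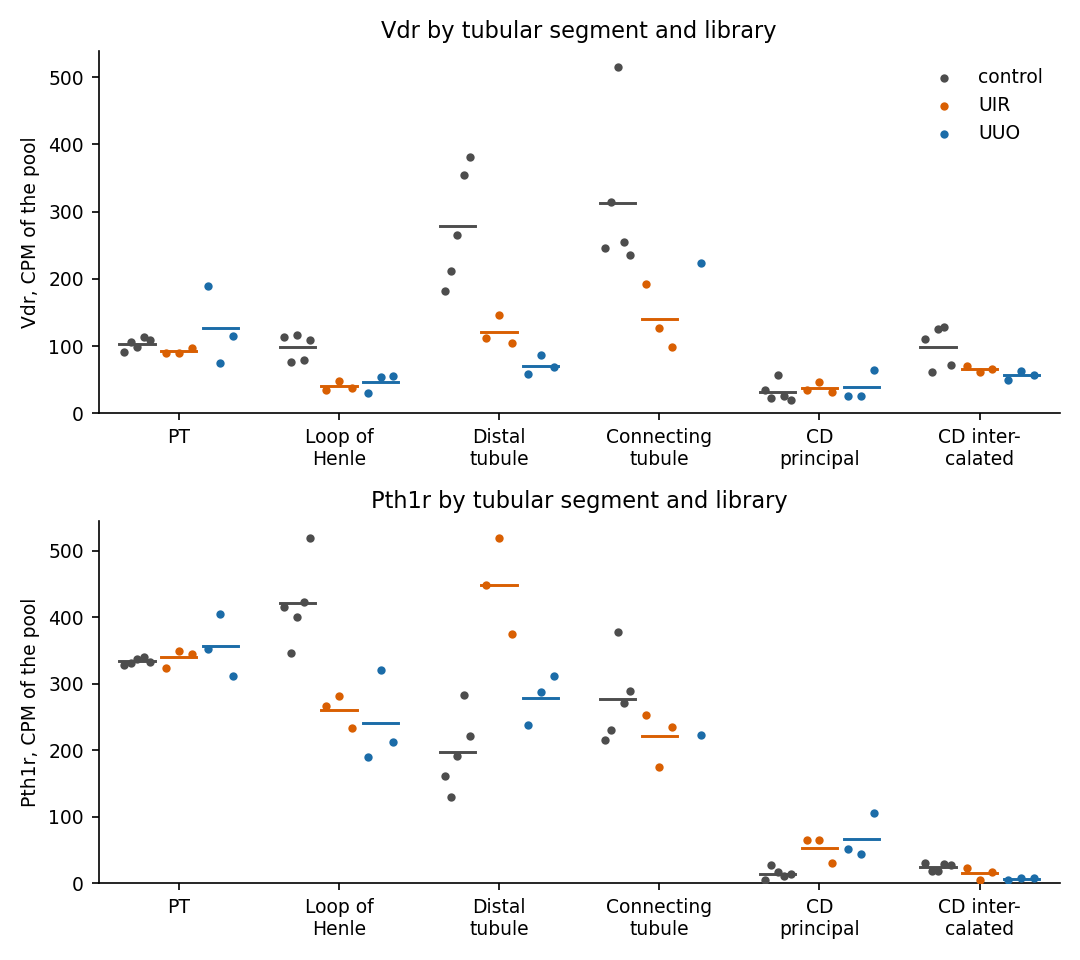
*Vdr* and *Pth1r* in CPM for each library and tubular class with at least 20 cells, on linear axes from 0, with group means as lines. *Vdr* of injured libraries lies below the controls in the loop and distal tubule. *Pth1r* lies above them in the distal tubule of UIR and in principal cells of both models and below them in the loop.

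The 2 enzymes of vitamin D were read in the PT alone. *Cyp24a1* (chr2:170482708-170497145, − strand), which clears the hormone, measured 62.6, 107, 71.2, 50.8 and 49.3 CPM in control, 118, 68.9 and 42.9 in UIR and 27.0, 28 and 72.3 in UUO (1, 10 and 29 UMIs). Groups overlapped, and neither change was called (0.18 ± 0.25, adjusted p = 0.738, and −0.57 ± 0.49, adjusted p = 0.621). No other tubular pool exceeded 21.5 CPM. *Cyp27b1* (chr10:127048250-127053006, + strand), which makes the active hormone, was near the limit of these libraries, at 1.43, 2.23, 5.36, 1.9 and 2.3 CPM in control and 2.77, 0.874 and 1.11 in UIR (−0.83 ± 0.51, adjusted p = 0.356). UUO PT cells held 0 UMIs of 796044, which allows up to 3.77 CPM, above the 2.5 CPM of all control PT cells, so a loss was not detectable at this depth. Among frTEC, the failed-repair tubular cells that the PT tests leave out, 1 sub-cluster (D19; 1 control, 163 UIR and 44 UUO cells) held 27 UMIs of *Cyp27b1* in UIR (6.69 CPM), 26 in UUO (19.9 CPM) and 0 in control.

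*Slc34a1*, the main phosphate cotransporter, was called in no PT comparison. Its PT pools measured 2789.6, 2713, 2844, 2472 and 2812 CPM in control, 2545, 2318 and 2324 in UIR, and 1703, 2589 and 1425 in UUO. UIR and UUO lay mostly below the controls, with 1 library of each inside their range, and neither was called (−0.18 ± 0.20, adjusted p = 0.663, and −0.71 ± 0.22, adjusted p = 0.0624). Outside the PT it was called lower in 4 classes of each model, with log2 changes of −1.23 to −1.89 in UIR and −5.04 to −6.03 in UUO. These levels are read as background. In the loop, distal tubule, principal and intercalated cells its level was below that of the macrophages of the same library in all 11 libraries, and empty droplets held 478 to 2602 CPM of it in control, 389 to 821 in UIR and 77.3 to 216 in UUO. The connecting tubule, with 90.4 to 430.3 CPM in control and 186 to 247 in UIR, exceeded macrophages in part and was not called (−0.01).

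*Slc34a3*, the minor cotransporter of the brush border, was the one member called in the PT. Controls measured 35.5, 36.9, 51.7, 35.2 and 39.6 CPM, UIR 30.8, 26.5 and 25.9, and UUO 0, 5.59 and 0. UIR lay below all controls. So did UUO1 and UUO2, whose 0 allows up to 7.47 CPM, but in library UUO, with 37 PT cells, a count of 0 allows up to 81.1 CPM, above every control. UIR fell by 0.52 ± 0.15 on the log2 scale (adjusted p = 0.0291) and UUO by 4.09 ± 0.63 (adjusted p = 0.000372). The UUO value rests on 2 UMIs among 174 cells, where the ratio of pooled CPM to control was 0.064 (95% exact counting interval 0.00774 to 0.231). Without library UUO the change was −3.99 (adjusted p = 0.0017), and without removal of doublets −0.98 (adjusted p = 0.0348). UUO was below UIR by 3.57 ± 0.69 (adjusted p = 0.0474). The UIR call was kept in 13 of 25 alternatives and lost, for example, without UIR1, without UIR2, without the N controls (−0.40, adjusted p = 0.114) and without the AN controls (−0.56, adjusted p = 0.0684), and the call of UUO against UIR was kept in 9 of 25.

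The balance of the cotransporters within a PT pool does not depend on its total. *Slc34a3* made up 1.26, 1.34, 1.78, 1.4 and 1.39% of the UMIs of both genes in control, 1.20, 1.13 and 1.10% in UIR, and 0, 0.216 and 0% in UUO. Of the UUO libraries, UUO and UUO2 held 63 and 572 UMIs of *Slc34a1*, so a count of 0 allows shares of up to 4.76% and 0.524%. Means were 1.44 ± 0.203%, 1.14 ± 0.0481% and 0.0718 ± 0.124% (SD). The difference from control was −0.293 percentage points in UIR and −1.36 in UUO, each with p = 0.0357 in a two-sided exact permutation test, the smallest that 5 against 3 libraries allow, and 0.0536 when adjusted over the 3 comparisons. The UIR difference was −0.914 (exact permutation p = 0.0714) with the mitochondrial limit at 15% and −0.154 (p = 0.286) at 50%. That of UUO was −2.82 (p = 0.0357, exact) at 15% and −0.489 (p = 0.179) without removal of doublets. The same exact test of UUO against UIR gave −1.07 with p = 0.1, again the smallest possible.

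*Slc34a3* belonged to the first part of the PT. In control S1-like cells it measured 123 CPM over all cells (1294 UMIs), against 0.895 in S2-like and 1.22 in S3-like cells. *Cyp24a1* was likewise highest in S1-like cells, with 169, 18.1 and 1.22 CPM, and so was *Cyp27b1* with 8.17 (86 UMIs), 0.168 and 0.487. *Slc34a1* went from 4527 ± 299 CPM in S1-like to 2989 ± 95.4 in S2-like and 335 ± 77.4 in S3-like cells (SD, n = 5), and *Kl* from 342 to 278 and 103 over all cells. *Pth1r* was highest in S2-like cells (388 ± 15.5 CPM, against 300.1 ± 22.1 and 310.0 ± 28.3). S1-like cells made up 10.8, 11, 14.2, 11.1 and 15.3% of the control PT cells, and 7.34, 4.14 and 4.17% of those of UIR. In UUO they were 16.2% (6 of 37 cells), 3.92% (2 of 51) and 0% (of 86). Many PT cells passed no segment's score. They were 49.8 to 67.8% of the control PT, 68.5 to 81.2% of that of UIR and 66.7 to 83.7% of that of UUO. Of the PT cells with a segment, S1-like cells were 27.4 to 44.1% in control and 24.4, 13.2 and 22.2% in UIR.

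Within S1-like cells *Slc34a3* measured 119, 131, 130, 125 and 113 CPM in control and 121, 116 and 120.2 in UIR. The groups overlapped, with a change of −0.06 ± 0.14 (adjusted p = 0.942). There *Cyp24a1* differed by 0.60 (adjusted p = 0.559), *Kl* by −0.16 (adjusted p = 0.783) and *Slc34a1* by −0.16 (adjusted p = 0.706). The lower *Slc34a3* of the UIR PT was not seen among the cells that scored as S1-like, a smaller share of PT cells in UIR. No UUO library had 20 S1-like cells.

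**Figure D5:**
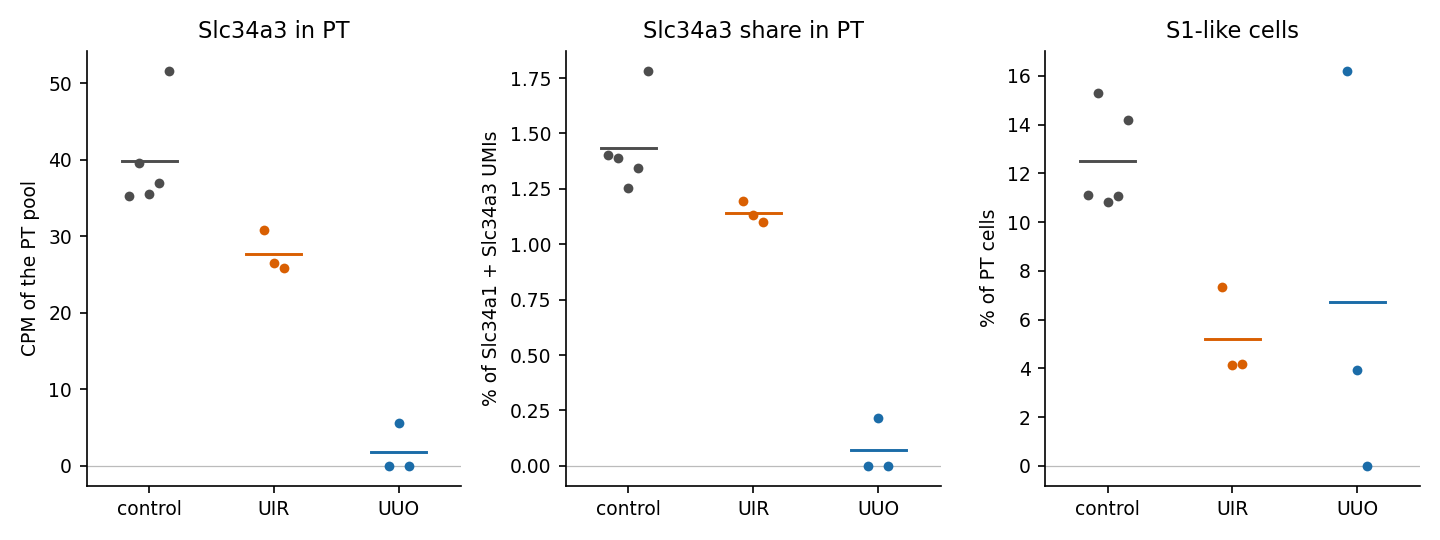
*Slc34a3* in the PT of each library in CPM (left), as a percent of the UMIs of both cotransporters (middle), and S1-like cells as a percent of PT cells (right), with group means as lines. *Slc34a3* is lower in all UIR libraries and in UUO1 and UUO2 than in any control, while the 0 of library UUO allows up to 81.1 CPM and 4.76%, above the controls, and the S1-like share is lower in all UIR libraries.

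The Pit transporters were not called in any segment or comparison. *Slc20a1* (chr2:129198764-129211616, + strand) measured 15.4 to 17.1 CPM in the PT of control, 10.2 to 14.5 in UIR and 12.5 to 27.0 in UUO (1, 7 and 5 UMIs). In intercalated cells it held 8.82 to 21.0, 14.6 to 18.0 and 19.2 to 25.6 CPM, and in the loop 7.83 to 11.1, 5.99 to 8.07 and 5.54 to 9.21. *Slc20a2* (chr8:22476788-22569612, + strand) measured 17.2, 23.3, 13.1, 16.7 and 7.1 CPM in the loop of control, 20.8, 30.4 and 27.5 in UIR, and 21.8, 25.4 and 32.7 in UUO, with 0.55 (adjusted p = 0.168) and 0.54 (adjusted p = 0.202). PT pools held 9.31 to 12.6 CPM in control, 11.4 to 13.3 in UIR and 16.8 to 27.0 in UUO, where the counts were 1, 6 and 7 UMIs. In simulated data of the same size, genes of at least 20 CPM were changed by 1 on the log2 scale. Of these, 77 of 108 were recovered in the PT of UIR and 25 of 108 in the PT of UUO. In the loop 52 and 45 of 89 were recovered, and in intercalated cells 67 and 65 of 99. Many of the Pit levels above lay under 20 CPM, where recovery was not measured.

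Whether a gene changed more in one segment than in another was tested directly, for 4 pairs of segments and both models, with the library as a block (limma). Of 72 such tests of members 24 were called, against 17.4% of all genes. *Kl* had 7 of 8, *Pth1r* and *Vdr* 6 of 8 each, *Slc34a1* 4 and *Slc34a3* 1, which rests on 2 control and 5 UIR UMIs in the loop, and *Fgfr1*, *Slc20a1*, *Slc20a2* and *Cyp24a1* had 0. For *Kl* the change in the PT exceeded that in the distal tubule by 3.48 (adjusted p = 1.41e-13) in UIR and 5.16 (adjusted p = 4.94e-12) in UUO. With the mitochondrial limit at 50% this difference was −0.031 in UIR (adjusted p = 0.983), and UUO gave no value. For *Pth1r* the change in the loop lay below that in the distal tubule by 1.82 (−1.82, adjusted p = 5.88e-07) and by 1.20 (−1.20, adjusted p = 0.00238).

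The other genes of the axis were counted in 6 lists that were chosen with results of these data known. Of all genes tested by segment, 11% were called higher and 9.95% lower in UIR, and 13.5% higher and 13.0% lower in UUO. Of the FGF23 and Klotho genes 10 of 32 tests were higher (31.3% against 11% of all genes) and 2 lower (6.25 against 9.95%) in UIR, with a median of 0.43, and 10 (31.3 against 13.5%) and 1 (3.13 against 13.0%) of 32 in UUO, with 0.29. In the distal tubule of UUO these were *Galnt3* (2.42, adjusted p = 1.89e-07), which adds sugars that shield FGF23, the kinase *Fam20c* (1.67, adjusted p = 1.55e-07), which marks FGF23 for cleavage, and the shedding proteases *Adam10* (1.73, adjusted p = 6.65e-07) and *Adam17* (0.73, adjusted p = 0.0214). *Fam20c* averaged 127 CPM there against 31.0 in control and *Adam10* 82.0 against 19.3. Among targets of ERK, the kinase under FGF receptors, 3 of 23 tests were higher (13.0 against 11%) and 5 lower (21.7 against 9.95%) in UIR, median 0.22, and 5 higher (21.7 against 13.5%) and 4 lower (17.4 against 13.0%) in UUO, median 0.04. The early gene *Egr1* went from 2.95 to 98.0 CPM in the distal tubule of UIR (4.79, adjusted p = 1.89e-06), while the ERK phosphatase *Dusp6* went from 32.6 to 8.94 (−2.19, adjusted p = 1.25e-05). In the UIR distal tubule at the mitochondrial limit of 50%, *Fam20c* gave 0.34 (adjusted p = 0.561), *Adam10* 0.11 (adjusted p = 0.937) and *Dusp6* −1.06 (adjusted p = 0.0641). *Spry1* was lower in UUO principal cells (−1.35, adjusted p = 0.00167) and *Spry2* higher in the UUO loop (1.13, adjusted p = 0.0187).

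PTH signalling genes were lower in 8 of 39 tests (20.5% against 9.95% of all genes) and higher in 1 (2.56 against 11%) in UIR, median −0.17, and lower in 14 of 37 (37.8 against 13.0%) and higher in 1 (2.7 against 13.5%) in UUO, median −0.35. *Casr*, the calcium-sensing receptor, fell in the loop by 0.77 in UIR and 0.78 in UUO (adjusted p = 0.00197), where UUO pools averaged 58.1 CPM against 83.7. The kinase *Sgk1* fell in intercalated cells of UUO (−2.89, adjusted p = 4.37e-08), the phosphodiesterase *Pde4d* in the UUO loop (−1.78, adjusted p = 0.00026) and the protein kinase A subunit *Prkar1a* in UUO principal cells (−1.06, adjusted p = 5.96e-06). Of vitamin D genes 8 of 43 tests were higher (18.6 against 11%) and 7 lower (16.3 against 9.95%) in UIR, median −0.06, and 7 (17.1 against 13.5%) and 11 (26.8 against 13.0%) of 41 in UUO, median −0.14. *S100g*, the calcium-binding calbindin D9k and a known target of *Vdr*, measured 9069, 10304, 9592, 1829.7 and 7296 CPM in the distal tubule of control, 1059, 1387 and 280.4 in UIR and 90.0, 49.8 and 351 in UUO. Its change was −3.42 in UIR (adjusted p = 8.68e-06) and −5.97 in UUO (adjusted p = 4.93e-09), and no injured library reached the lowest control. With the mitochondrial limit at 50% the UIR value was 0.98 (adjusted p = 0.139). Other calcium genes rose, the channel *Trpv6* in UUO intercalated cells (2.64, adjusted p = 0.000769, 32.8 against 4.6 CPM) and the pump *Atp2b1* in UUO principal cells (1.17, adjusted p = 8.35e-06, but 0.35 with adjusted p = 0.214 at the limit of 50%). *Lrp2*, the PT receptor of vitamin D binding protein, was called lower in the UUO distal tubule (−4.97), where 1.07 against 28.5 CPM stood beside 1556 in control PT. The counts of the lists include such tests of PT genes outside the PT. How far free RNA adds to their lower calls was not tested.

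Phosphate transport partners were lower in 3 of 24 tests (12.5% against 9.95% of all genes) and higher in 1 (4.17 against 11%) in UIR, median −0.17, and lower in 7 of 23 (30.4 against 13.0%) in UUO, median −0.23, with 0 higher (0 against 13.5%). The scaffold *Pdzk1*, which holds NaPi-IIa in the membrane, was lower in UUO PT (−0.51, adjusted p = 0.0458, 479 against 521 CPM), although 1 UUO library at 676 CPM exceeded the controls. The phosphate exporter *Xpr1* was lower in UUO principal cells (−0.62, adjusted p = 0.0167, 37.8 against 52.3 CPM). Among 8 tests of mineralization and stanniocalcin genes 4 were higher (50 against 11%) and 2 lower (25 against 9.95%) in UIR, median 1.23, and 3 (37.5 against 13.5%) and 2 (25 against 13.0%) in UUO, median 0.08. *Stc1*, a hormone linked to phosphate handling, was higher in the distal tubule of UUO (5.01, adjusted p = 4.84e-06) and UIR (4.78). Control cells held 2 UMIs of it, and the ratio of pooled CPM to control was 47.7 in UUO (95% exact counting interval 13.0 to 397) and 39.9 in UIR (10.8 to 333). *Alpl*, the alkaline phosphatase, was lower in UUO PT (−1.36, adjusted p = 0.015, 25.0 against 82.3 CPM), and *Enpp1*, which makes pyrophosphate, higher in UIR distal tubule (1.10, adjusted p = 0.0113, 36.0 against 11.3 CPM, and 0.49 with adjusted p = 0.476 at the limit of 50%).

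Some genes followed a member closely over the 18 means of segment and group, among 9892 genes, which is a description only since these means share libraries. The pattern of *Kl* was most like that of *Gstk1* (Pearson r = 0.89), *Ivd* (0.87), *Oxct1* (0.87), *Sdhc* (0.86) and *Mccc2* (0.85). That of *Slc34a1* was most like *Acsm2* (0.997), *Akr1c21* (0.994), *Gatm* (0.993) and *Miox* (0.993), of which *Miox* had helped to name the PT. Nearest to *Vdr* were *D10Jhu81e* (0.90), *Mrpl42* and *Auh*, to *Pth1r* *Trabd2b* (0.92), *Arnt2* and *Ybx1*, and to *Fgfr1* *Tecr* (0.97), *Cd99l2* and *Ppt1*. *Slc34a3* stood nearest to *Cyp2d12* (0.95), *Cyp24a1* to *Aadac* (0.99), *Slc20a1* to *Gpc4* (0.91) and *Slc20a2* to *Tmem68* (0.97). *Cyp27b1* was too low for such a measure.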

How the data were processed

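Gene counts were measured by 10x 3′ single-cell RNA sequencing of 11 kidney libraries. The authors deposited raw counts of UMIs per gene and droplet, empty droplets included, made with Cell Ranger 3.1.0 on mm10 per the labels. These counts carry no removal of free RNA or doublets. Droplets were called against the empty profile (FDR 0.01) and kept with at least 200 genes, at most 30% mitochondrial and 5% hemoglobin UMIs, and the top 7.5% of doublet scores were removed. Of 40381 barcodes kept, 209 occurred in several libraries. Cells were clustered on 2000 variable genes without markers and members (40 components, 20 neighbours, Leiden resolution 1), and distal and PT cells were clustered again (30 components). Classes were named from fixed markers. The naming limits, and the score of 0.8 for PT segments, were revised after the marker tables were seen. Counts were summed by library and class (at least 20 cells), since cells are no replicates.

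Sums were tested with edgeR 4.0.16 (quasi-likelihood, TMM, filterByExpr, 3 groups in 1 model) in R 4.3.3, with differences between segments in limma 3.58.1 (duplicateCorrelation). Shares were tested by exact permutation. In the fits p-values were adjusted over all genes tested within each segment, or pair of segments, and comparison, and not across these. Each library is thought to be 1 mouse, but the labels do not tie libraries to mice, and p-values measure the spread between these libraries. In simulated counts, with changes set only in genes of at least 20 CPM, 99 of 99 genes changed by 2 on the log2 scale were recovered in UIR distal tubule. Of those changed by 1, 61 of 101 were recovered. Counting intervals and floors (3 UMIs) cover counting error only.

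The members and the 6 lists (53 genes) were chosen with earlier results of these data known. Named are all members, up to 4 called genes of each list by size of change where the higher group reached 20 CPM, and the genes most like a member (3, or 5 for *Kl* and *Slc34a1*) by Pearson r of log2(CPM + 1), 1 of which is not reported here. Alternatives were DESeq2 1.42.0, limma-voom, other scalings and filters, free RNA subtracted, other limits on cells and clustering, a replicate block, and leaving out libraries or sets of controls.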

Additional observations from a re-analysis of the deposited data

Results flagged for a closer look

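A control library stood far from the other 4 in 5 of 41 groups of control values, where chance gives about 1 in 20. The groups share the same libraries and are not independent. Ctrl was highest for *Slc34a1* in the connecting tubule (430.3 CPM, others 90.4 to 154) and in intercalated cells (121 CPM, others 28.8 to 52.9) and for *Vdr* in the connecting tubule (515 CPM, others 235 to 314). Empty droplets of Ctrl held 2602 CPM of *Slc34a1* (other controls 478 to 640) and 109 of *Vdr* (31.8 to 36.8). Whether free RNA made these values of Ctrl high was not tested. N2 was highest in the PT for *Slc34a3* (51.7 CPM, others 35.2 to 39.6) and *Cyp27b1* (5.36 CPM, others 1.43 to 2.3).

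The change from control differed between segments in 24 tests (limma, log2 units, the first segment minus the second). For *Kl* it was PT minus distal tubule 3.48 in UIR (adjusted p = 1.41e-13) and 5.16 in UUO (adjusted p = 4.94e-12), and PT minus loop 3.11 (adjusted p = 3.08e-10) and 3.11 (adjusted p = 4.19e-06). Distal tubule minus principal cells gave −3.47 (adjusted p = 2.41e-09) and −4.27 (adjusted p = 1.44e-09), and loop minus distal tubule 2.05 in UUO (adjusted p = 0.00979). For *Vdr* the same pairs gave 1.30 in UIR (adjusted p = 3.34e-05) and 2.11 in UUO (adjusted p = 3.42e-06) for PT minus distal tubule. PT minus loop gave 1.37 (adjusted p = 0.000122) and 1.22 (adjusted p = 0.0156), and distal tubule minus principal cells −1.62 (adjusted p = 0.00146) and −2.21 (adjusted p = 8.62e-06).

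For *Pth1r* loop minus distal tubule was −1.82 in UIR (adjusted p = 5.88e-07) and −1.20 in UUO (adjusted p = 0.00238), and PT minus loop 0.91 (adjusted p = 0.0005) and 0.92 (adjusted p = 0.015). PT minus distal tubule was −0.91 in UIR (adjusted p = 0.00228), and distal tubule minus principal cells −1.85 in UUO (adjusted p = 0.00169). *Slc34a1*, read as background in the loop and distal tubule, gave 1.69 (adjusted p = 0.00652) and 4.20 (adjusted p = 1.05e-05) for PT minus distal tubule, and 1.54 (adjusted p = 0.00251) and 4.72 (adjusted p = 2.62e-06) for PT minus loop. *Slc34a3* gave 2.20 for PT minus loop in UIR (adjusted p = 0.00658), but the loop held 2 UMIs of it over all controls and 5 in UIR and did not pass the count filter there, so this value is no measure of a difference. With the mitochondrial limit at 15% or 50% fewer differences between segments were called (13 and 12), from fewer tests. No pair with principal cells was tested at 15%, and the 12 calls at 50% were not all among those listed above. At 50% PT minus distal tubule in UIR was −0.031 for *Kl* (adjusted p = 0.983), 0.31 for *Vdr* (adjusted p = 0.545) and −0.014 for *Pth1r* (adjusted p = 0.99). Distal tubule minus principal cells was −0.43 for *Kl* (adjusted p = 0.658) and −0.22 for *Vdr* (adjusted p = 0.839), and no distal tubule of UUO could be compared.

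Failed-repair tubular cells (frTEC), which entered no test, had lowest injured libraries above the highest control value for 6 members in UIR and 2 in UUO. The share of all genes that did so is not given, so these numbers show nothing particular to the members. The lowest UIR library had 101 CPM of *Slc34a1*, 13.9 of *Slc20a1*, 28.5 of *Fgfr1*, 45.1 of *Pth1r*, 30.5 of *Vdr* and 0.495 of *Cyp27b1*, where the highest controls had 86.4, 9.72, 25.8, 25.6, 21.9 and 0. The lowest UUO library had 10.8 CPM of *Slc20a1* and 29.9 of *Fgfr1*. The control pools are small, and a count of 0 allows 9.97 to 63.3 CPM in them, so nothing can be read from *Cyp27b1*, at 0 in all controls, and for *Fgfr1* and *Pth1r* the 0 of AN1 allows more than the lowest injured library. For *Slc34a1* and *Slc20a1* the control levels were of the size of background, as macrophages held 62.8 to 207 and 3.08 to 26.9 CPM in control. In UIR macrophages held 43.5 to 83.6 and 13.8 to 18.0 CPM. The lowest UIR level of *Slc34a1* lay just above these and that of *Slc20a1* among them. UIR1 and UIR2 held 582 and 478 CPM of *Slc34a1* and 28.1 and 19.0 of *Slc20a1*, above all UIR macrophages. Macrophages of control held 0 to 17.1 CPM of *Vdr*. In UUO *Slc34a1* measured 7.48, 109 and 26.9 CPM against 38.9 to 86.4 in control, and *Kl* 11.6, 34.8 and 19.6 against 24.3 to 73.1. Control libraries held 27, 19, 21, 8 and 28 of these cells, and the 9.72 CPM comes from the library with 19. The 103 control, 823 UIR and 311 UUO cells fell differently over sub-clusters, with 61, 107 and 43 in D17, 5, 220 and 55 in D12, and 1, 163 and 44 in D19.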

How the results depend on the processing

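Of 2721 values of members under an alternative, 2623 were counted as unchanged, 64 were no longer called, 29 became called and 5 changed sign. For the genes of the lists these counts were 5956, 309, 164 and 8 of 6437. Each of the 5 values of members was called in the main fit or under the alternative. Sign changes of values called in neither are thus not among them. The causes of the changes were not tested. The counts that follow are tests of a member in a segment, given without the share of all genes under each alternative. Those called lower in UIR numbered 14, but 9 with free RNA subtracted and 8 with the mitochondrial limit at 15%. The 2 called higher became 1 with at least 50 cells per pool and 1 with the limit at 15% or 50%. In UUO 15 lower became 9 at the limit of 15%, and 1 higher became 3 with library totals alone and 0 at 15% or 50%. Principal cells had no test against control at 15%, so their calls were absent there and not lost by a test. The 10 tests lower in UUO than in UIR became 5 with free RNA subtracted. Differences between segments called numbered 24, but 13 at the limit of 15% and 12 at 50%. Fewer were tested at either limit, and the 12 were not all among the 24. These limits, like PT segments alone and the counts without *Slc34a1* outside the PT, were chosen after seeing the data. Leaving out each library in turn gave 12 to 15 tests of members lower in UIR, 14 to 17 in UUO, 7 to 11 in UUO against UIR, and 22 to 25 differences between segments. Without the N or the AN controls 13 tests of members were lower in UIR and 17 in UUO.

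The *Slc34a3* share in UIR was −0.914 percentage points (exact permutation p = 0.0714) at the limit of 15% and −0.154 (p = 0.286) at 50%, and between −0.338 and −0.206 with 1 library left out, when the design cannot reach 0.05. In UUO the same exact test gave −1.32 (p = 0.0952) with at least 1000 UMIs per cell, −0.489 (p = 0.179) without removal of doublets, and −1.44 to −1.28 with 1 library left out.

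The signs counted as changed turned at the limit of 15% for *Enpp1* in the loop (0.60 in UIR and 0.18 in UUO). At 50% they turned for *Lrp2* in UIR connecting tubule (−0.95), *Pde4d* (0.00087) and *S100g* (0.98) in UIR distal tubule, *Sgk1* (1.67) and *Vdr* (−2.43) in UUO principal cells and *Pth1r* in principal cells (−0.22 in UIR and −1.49 in UUO). Without removal of doublets they turned for *Pde4d* (0.10, UUO) and *Pth1r* (1.25 in UIR and 0.22 in UUO) in intercalated cells, and without the N controls for *S100g* in UIR principal cells (1.69).

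Injured libraries share numbers in their names. The deviations of libraries with the same number correlated between −0.10 and 0.22 over 5 classes, so the numbers were not taken to pair the mice. Libraries UIR and UUO, which carry no number, correlated at 0.03 in the PT and at 0.20 to 0.33 in the other classes. Whether UIR and UUO share a source of variation was not tested. With the number as a replicate block 9 tests of members were lower and 0 higher in UUO than in UIR, and 9 and 0 in the same 6 libraries without the block. Distal tubule of UUO at the limit of 50%, and connecting tubule without removal of doublets, gave no value. Depth was limited in the connecting tubule of UUO, with 45 cells and no test, and in the PT of UUO, with 174 cells.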
